A study of Mus musculus with 9 samples.

Results

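The genes described here are 10 of the interleukin 6 family pathway, out of 55228 genes in the count table. They are the ligand genes *Il6*, *Lif* and *Il11*, the receptor genes *Il6ra*, *Il6st*, *Lifr* and *Osmr*, and the STAT3 target genes *Socs3*, *Cebpb* and *Cebpd*. The genes were picked by name and role, with earlier results of these data known. All 10 passed the expression filter that left 15253 genes to test. RNA-seq was made from 9 cultures of HC11, a mouse mammary epithelial cell line from a BALB/c animal that can be driven to make milk proteins. There were 3 cultures of the parental cells (*WT*) and 3 each of *KD1* and *KD2*, lines edited in the planar cell polarity gene *Vangl2* with Cas9, 1 guide per line and a repair template that carries stop codons. The labels call both edited lines *Vangl2* knockouts, whereas the study calls them *KD*, and its immunoblots showed little or no protein in *KD1* and less protein in *KD2*. None of the cultures was treated or differentiated, and all were kept in RPMI medium with serum (10%), EGF (10 ng/mL) and insulin (5 µg/mL). Each edited line was grown from a single colony of a mixed parental line, and no clone without an edit was sequenced, so that the edit and the clone cannot be told apart. The replicate numbers are all that the labels give on how cultures of a line differ, so the p-values measure the spread between these cultures, which may be technical.

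Most interleukin 6 family cytokines signal through receptor complexes that share gp130, the product of *Il6st*. Interleukin 6 and interleukin 11 bind their own alpha receptors (*Il6ra*, *Il11ra1*) and then gp130, whereas leukemia inhibitory factor (*Lif*) joins gp130 to the LIF receptor (*Lifr*), and oncostatin M uses gp130 with *Osmr*. The complexes activate JAK kinases and STAT3, which enters the nucleus and induces targets that include its own inhibitor *Socs3* and the transcription factors *Cebpb* and *Cebpd*. In the mammary gland, LIF and STAT3 are known for driving the cell death and remodelling of involution after weaning.

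Each ligand gene rose over *WT* in at least 1 edited line, by more than any other member did in either line. *Il6* rose 25.2-fold in *KD1* and 7.45-fold in *KD2*, *Lif* rose 10.3-fold in *KD1* and passed no test in *KD2*, and *Il11* rose 2.17-fold in *KD1* and 12.4-fold in *KD2*. The receptors followed another pattern, with *Lifr* 8.51-fold lower in *KD1*, *Osmr* lower in *KD1* and higher in *KD2*, and *Il6st* within a factor of 1.18 of *WT* in both lines. *Socs3* rose in both edited lines, by 2.83-fold and 2.12-fold, and *Cebpd* rose 1.32-fold and 2.34-fold, whereas *Cebpb* fell in *KD1*.

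Promoter windows are shown for the ligand genes, which had the largest rises, and for *Socs3*, the feedback target of STAT3. Each window runs from 250 bases before to 50 bases after a RefSeq transcript start on GRCm38.p6, 5′ to 3′ on the strand of the gene, and capitals mark the motif matches counted below.
*Il6*, chr5:30012864-30013163, plus strand: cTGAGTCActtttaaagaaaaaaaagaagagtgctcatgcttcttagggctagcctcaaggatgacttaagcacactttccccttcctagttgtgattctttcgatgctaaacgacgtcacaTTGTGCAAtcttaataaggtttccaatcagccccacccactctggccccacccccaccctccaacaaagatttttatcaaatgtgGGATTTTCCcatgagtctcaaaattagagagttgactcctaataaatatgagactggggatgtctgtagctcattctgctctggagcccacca
*Lif*, chr11:4257318-4257617, plus strand: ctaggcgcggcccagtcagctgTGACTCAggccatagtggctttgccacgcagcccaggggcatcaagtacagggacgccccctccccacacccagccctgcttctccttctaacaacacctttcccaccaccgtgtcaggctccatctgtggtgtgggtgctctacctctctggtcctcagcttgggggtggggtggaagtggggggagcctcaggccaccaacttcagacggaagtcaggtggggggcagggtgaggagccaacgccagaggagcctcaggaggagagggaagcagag
*Il11*, chr7:4778092-4778391, minus strand: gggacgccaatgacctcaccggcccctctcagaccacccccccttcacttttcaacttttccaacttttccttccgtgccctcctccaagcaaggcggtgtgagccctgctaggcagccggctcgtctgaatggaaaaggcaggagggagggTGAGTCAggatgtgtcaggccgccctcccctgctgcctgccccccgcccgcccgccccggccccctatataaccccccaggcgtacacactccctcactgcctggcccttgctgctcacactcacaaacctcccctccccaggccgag
*Socs3*, chr11:117969317-117969616, minus strand: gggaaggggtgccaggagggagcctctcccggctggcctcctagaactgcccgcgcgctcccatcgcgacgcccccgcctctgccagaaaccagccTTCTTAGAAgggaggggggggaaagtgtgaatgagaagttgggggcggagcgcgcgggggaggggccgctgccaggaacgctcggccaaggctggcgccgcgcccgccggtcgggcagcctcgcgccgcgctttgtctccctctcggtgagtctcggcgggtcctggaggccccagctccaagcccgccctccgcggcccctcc
The RefSeq table held 11 windows for 9 of the members, with a pair each for *Il11* and *Lifr*, and *Cebpd* was not matched. The *Il11* window shown is the more downstream of its pair, and it is the one of the 2 that holds a match.

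Both strands were searched for a STAT motif (TTCNNNGAA), an AP-1 motif (TGANTCA), a C/EBP motif (TTGCNNAA) and an NF-kB motif (GGANTTTCC). The *Il6* window held an AP-1, a C/EBP and an NF-kB match, which begin 249, 128 and 43 bases before the transcript start and do not overlap. The *Lif* and *Il11* windows held an AP-1 match each, and the *Socs3* window held the STAT match TTCTTAGAA, which begins 154 bases before the start. Of the 11 windows, 1 held the STAT motif, 4 the AP-1 motif (*Il6*, *Lif*, *Il11* and *Osmr*), 1 the C/EBP motif and 1 the NF-kB motif. Among 32851 RefSeq windows of the same length, the shares with these motifs were 8.3%, 7.81%, 10.8% and 1.25%, in the same order. A match is a description of the letters, and binding was not measured here.

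The libraries held 19231428 to 28360592 counts, and 3 counts, the floor used for what a library can show, corresponded to 0.0999 to 0.154 CPM (counts divided by the library size after TMM scaling). *KD2* replicate 3 stood apart from the other *KD2* cultures, with a chi-square per degree of freedom over genes of 17.4 and 22.1 against 1.74 between the others, and *WT* replicate 1 stood apart less (13.1 and 10.7, against 3.38). Leaving out either culture kept the call of all 10 members in every comparison. Values without 1 of these cultures are given beside *Il6*, *Socs3* and *Cebpb*, and the moves of the other members are not all given. *Vangl2* had 66, 99 and 86 counts in *WT*, 75, 48 and 69 in the *KD1* cultures and 90, 118 and 90 in those of *KD2*. The RNA was 1.55-fold lower in *KD1* (edgeR quasi-likelihood test, adjusted p = 0.0058) and not detectably different in *KD2* (adjusted p = 0.81). Most of the RNA thus remained in both lines, and its level does not check the knockout label of either. All 10 markers of mammary epithelium were above the floor in at least 1 culture of every line, and *Cldn7* had only 5, 8 and 2 counts in *KD2*. The summed levels of the 10 were 5503 to 6037 CPM in *WT*, 5994 to 6145 in *KD1* and 3195 to 3902 in *KD2*. The 8 fibroblast markers summed to 17.0 to 23.0 CPM in *WT*, 8.07 to 10.1 in *KD1* and 90.1 to 99.9 in *KD2*, where *Pdgfrb* alone was at 66.8 CPM, and *Lum* and *Thy1* were at or under 3 counts in every culture. From *WT* to *KD2*, mean CPM went from 7.96 to 16.4 for *Pdgfra* and from 1.17 to 3.09 for *Col1a2*. It went from 7.03 to 4.38 for *Col1a1* and from 3.03 to 2.72 for *Col3a1*. The 8 immune markers summed to 3.12 to 6.04, 7.26 to 8.69 and 4.93 to 6.15 CPM, with *Adgre1* at 0 in every culture, and the 5 endothelial markers to 2.05 to 2.49, 4.87 to 5.50 and 1.43 to 2.10 CPM. Among the immune markers, *Cd68* had means of 4.1, 7.56 and 4.02 CPM in *WT*, *KD1* and *KD2*. *Lyz2* had 1, 1 and 0 counts in *WT*, 0 in every *KD1* culture and 31, 41 and 27 in *KD2*. The others had at most 13 counts in a culture. The part of these shifts in the results below was not tested, and in bulk RNA more cells with a transcript and more transcript per cell cannot be told apart.

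*Il6* lies on chromosome 5 (30013114 to 30019981, plus strand, GRCm38). Its levels were 2.15, 1.92 and 2.00 CPM in *WT*, 48.6, 53.4 and 50.9 CPM in *KD1* and 16.5, 17.1 and 11.1 CPM in *KD2*. The 3 lines did not overlap, and *KD1* was the highest. The log2 fold change was 4.66 ± 0.158 (SE) in *KD1* (adjusted p = 1.1e-11) and 2.90 ± 0.171 in *KD2* (adjusted p = 5.0e-09). Compared directly, *Il6* was 3.38-fold lower in *KD2* than in *KD1* (adjusted p = 1.1e-08). The low culture of *KD2* was replicate 3, and without it the log2 fold change of *KD2* was 3.09.

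*Lif* lies on chromosome 11 (4257557 to 4272514, plus strand). Its levels were 64.1, 68.5 and 61.1 CPM in *WT*, 680.7, 664.3 and 657.7 CPM in *KD1* and 58.9, 64.8 and 51.3 CPM in *KD2*. The *KD1* cultures stood far above all others, and those of *KD2* overlapped *WT*. The log2 fold change in *KD1* was 3.37 ± 0.0819 (adjusted p = 4.2e-13). The value for *KD2* was -0.14 ± 0.0781 (adjusted p = 0.12), with a 95% interval of -0.30 to 0.01, and without *KD2* replicate 2 it was -0.22 and passed the test (adjusted p = 0.021). *Lif* was 11.4-fold lower in *KD2* than in *KD1* (adjusted p = 1.6e-13).

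*Il11* lies on chromosome 7 (4772373 to 4782859, minus strand) and was the lowest of the ligands in *WT*. Its levels were 1.13, 1.44 and 1.07 CPM in *WT*, 2.44, 3.18 and 2.38 CPM in *KD1* and 14.8, 15.3 and 15.6 CPM in *KD2*. The lines did not overlap, and the order of the edited lines was the opposite of that for *Il6* and *Lif*. The log2 fold change was 1.12 ± 0.178 in *KD1* (adjusted p = 1.0e-04) and 3.63 ± 0.147 in *KD2* (adjusted p = 1.3e-10). The *WT* values rest on 22, 36 and 22 counts. *Il11* was 5.70-fold higher in *KD2* than in *KD1* (adjusted p = 5.0e-10).

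**Figure D1:**
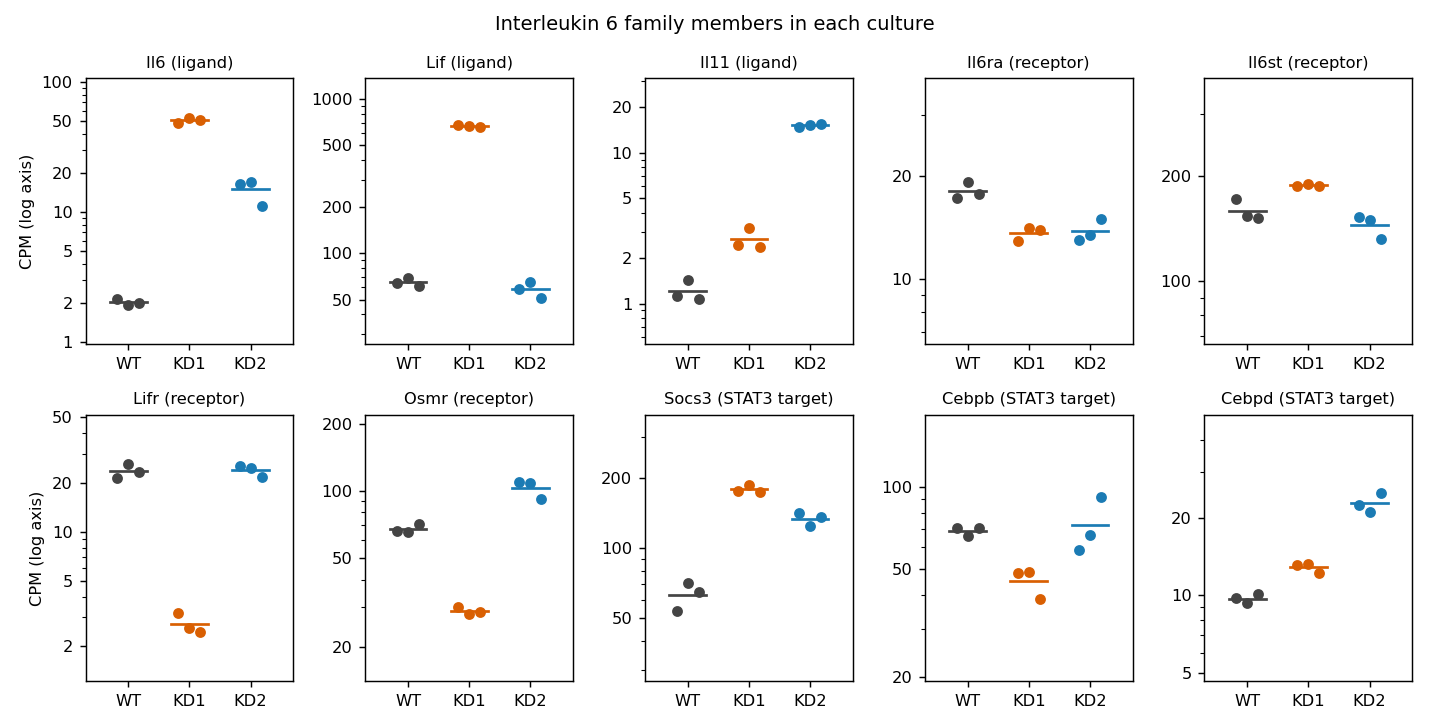
Level of each of the 10 members in each culture, in CPM on a log axis that differs between panels, with points for cultures in order of replicate number and a line for the mean of each line. *Lif* is high in the 3 *KD1* cultures alone, *Lifr* is low there alone, and *Il6* and *Socs3* are above *WT* in all 6 edited cultures.

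Of the receptors, *Il6ra* (chromosome 3, 89864059 to 89913196, minus strand) binds interleukin 6 itself. Its levels were 17.3, 19.2 and 17.7 CPM in *WT*, 12.9, 14.1 and 13.9 CPM in *KD1* and 13.0, 13.4 and 15.0 CPM in *KD2*. Both edited lines were below every *WT* culture and overlapped each other. The gene was 1.33-fold lower in *KD1* (adjusted p = 8.5e-04) and 1.31-fold lower in *KD2* (adjusted p = 9.1e-04). It was the 1 member that did not pass the test between the edited lines (adjusted p = 0.88), where the log2 difference had a 95% interval of -0.15 to 0.18.

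*Il6st* (chromosome 13, 112464070 to 112510086, plus strand) encodes gp130, which the complexes for interleukin 6, interleukin 11, LIF and oncostatin M share. Its levels were 171.8, 153.6 and 151.2 CPM in *WT*, 187.0, 189.5 and 187.3 CPM in *KD1* and 152.5, 149.7 and 132.5 CPM in *KD2*. The *KD1* cultures were above all others by a small margin, and *KD2* overlapped *WT*. The gene was 1.18-fold higher in *KD1* (adjusted p = 0.0072), whereas *KD2* was at -0.13 ± 0.0679 on the log2 scale (adjusted p = 0.10; 95% interval -0.27 to 0.00). The difference between the edited lines was 1.30-fold, with *KD2* lower (adjusted p = 2.2e-04).

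*Lifr* (chromosome 15, 7090614 to 7197489, plus strand) encodes the receptor that LIF binds. Its levels were 21.4, 25.8 and 23.3 CPM in *WT*, 3.21, 2.60 and 2.46 CPM in *KD1* and 25.1, 24.6 and 21.5 CPM in *KD2*. The line with the high ligand thus had the low receptor, and *KD2* overlapped *WT* for both. The log2 fold change was -3.09 ± 0.121 in *KD1* (adjusted p = 4.9e-11) and 0.01 ± 0.0945 in *KD2* (adjusted p = 0.90; 95% interval -0.17 to 0.20). *Lifr* was 8.59-fold higher in *KD2* than in *KD1* (adjusted p = 3.1e-11).

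*Osmr* (chromosome 15, 6813577 to 6874969, minus strand) encodes the oncostatin M receptor. Its levels were 66.1, 65.2 and 71.0 CPM in *WT*, 30.2, 28.1 and 28.5 CPM in *KD1* and 109.3, 108.1 and 92.0 CPM in *KD2*. The 3 lines did not overlap. *Osmr* was the 1 member that changed in opposite directions, 2.33-fold lower in *KD1* (adjusted p = 7.6e-09) and 1.53-fold higher in *KD2* (adjusted p = 4.4e-06). It was 3.57-fold higher in *KD2* than in *KD1* (adjusted p = 6.3e-11). *Osmr* and *Lifr* are neighbours, with 216 kb between them on chromosome 15, and both were lower in *KD1*, whereas in *KD2* *Osmr* was higher and *Lifr* was not detectably changed.

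*Socs3* (chromosome 11, 117966079 to 117970047, minus strand) encodes the inhibitor that binds gp130 complexes and shuts STAT3 signalling down. Its levels were 53.8, 70.8 and 64.7 CPM in *WT*, 175.6, 186.3 and 174.8 CPM in *KD1* and 141.3, 124.2 and 136.6 CPM in *KD2*. All 6 edited cultures were above every *WT* culture, and *KD1* was above *KD2*. The log2 fold change was 1.50 ± 0.0881 in *KD1* (adjusted p = 4.1e-09) and 1.08 ± 0.0879 in *KD2* (adjusted p = 1.1e-07). Without *WT* replicate 1 these values were 1.40 and 0.98, so that the change in *KD2* was then just under 2-fold. *Socs3* was 1.34-fold lower in *KD2* than in *KD1* (adjusted p = 6.0e-04).

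*Cebpb* and *Cebpd* encode C/EBPβ and C/EBPδ, leucine zipper transcription factors of the acute phase response and of mammary development. *Cebpb* (chromosome 2, 167688915 to 167690418, plus strand) was at 70.5, 66.0 and 70.7 CPM in *WT*, 48.2, 48.7 and 38.6 CPM in *KD1* and 58.3, 66.3 and 91.9 CPM in *KD2*. The *KD1* cultures were below all others, and those of *KD2* were spread on both sides of *WT*, with replicate 3 the highest. *Cebpb* was 1.53-fold lower in *KD1* (adjusted p = 0.0016), and was at 0.06 ± 0.134 on the log2 scale in *KD2* (adjusted p = 0.70; 95% interval -0.20 to 0.32). Without *KD2* replicate 3 that value was -0.12 (adjusted p = 0.19). Between the edited lines *Cebpb* was 1.59-fold higher in *KD2* (adjusted p = 5.4e-04), a log2 difference of 0.67 that fell to 0.47 without that culture.

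*Cebpd* (chromosome 16, 15887286 to 15891031, plus strand) was at 9.73, 9.32 and 10.1 CPM in *WT*, 13.1, 13.3 and 12.2 CPM in *KD1* and 22.4, 21.0 and 25.0 CPM in *KD2*. The lines did not overlap and rose in that order. The log2 fold change was 0.41 ± 0.0911 in *KD1* (adjusted p = 0.0017) and 1.23 ± 0.0879 in *KD2* (adjusted p = 3.2e-08), and *Cebpd* was 1.77-fold higher in *KD2* than in *KD1* (adjusted p = 9.2e-07). Exons of *Tmem189* cover 20.7% of *Cebpb* and exons of *Spidr* cover 15% of *Cebpd*, each on the opposite strand, and counting by strand is not given in the sources used here, so part of the reads of both genes is uncertain. The same holds for 2.80% of *Il6ra* (*Gm42809*), and 3.13% of the 50-base windows in the exons of *Il11* also occur in other genes. Of the other genes with values below, opposite-strand exons cover 23.4% of *Ccnd1*, 26.8% of *Ctsl*, 14.5% of *Pim1* and, for the larger of its overlaps, 13.7% of *Tgm2*, so part of their reads is uncertain too. Smaller overlaps include 7.46% of *Cish* and 6.96% of *Ptpn6* on the opposite strand and 8.17% of *Clcf1* on the same strand. Others are not listed here.

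**Figure D2:**
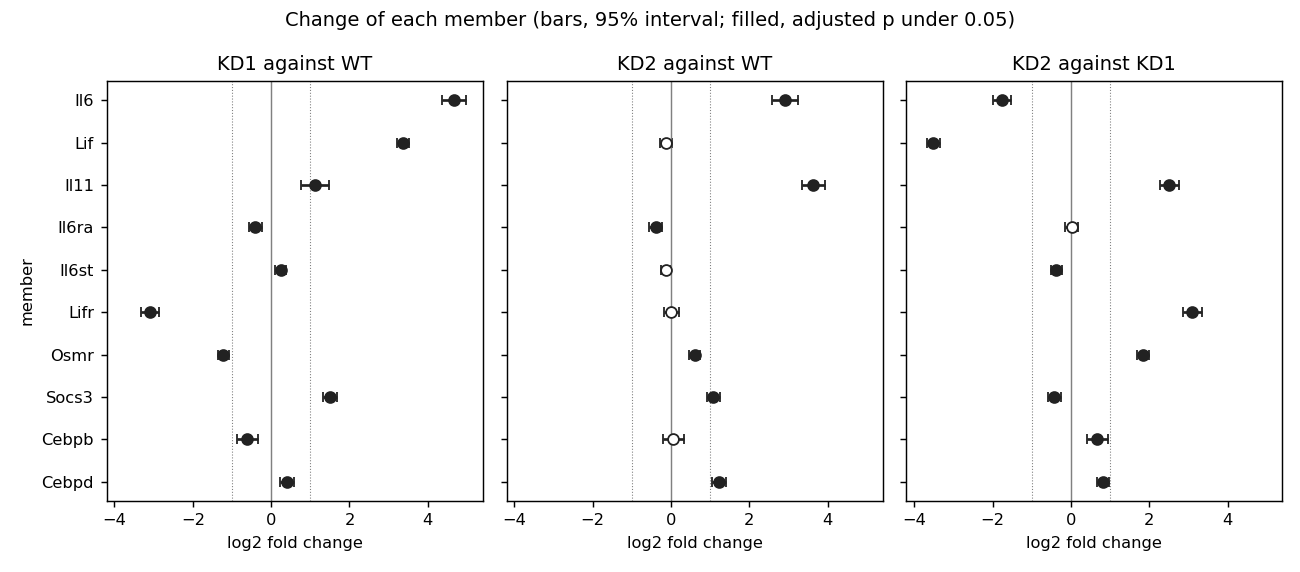
Log2 fold change of the 10 members in the 3 comparisons, with bars for the 95% interval, filled points for adjusted p under 0.05 and dotted lines at a 2-fold change. *Il6* is far to the right in both edited lines, *Il11* is far to the right in *KD2* and near the 2-fold line in *KD1*, *Lif* and *Lifr* are far from 0 in *KD1* and near 0 in *KD2*, and *Osmr* lies on opposite sides.

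Against *WT*, 6 of the 10 members rose and 4 fell in *KD1*, where 26.9% and 30% of all genes tested did so. In *KD2*, 5 rose and 1 fell, beside 34% and 33.3% of all genes. With a change of over 2-fold as well, 4 members rose and 2 fell in *KD1* (9.34% and 7.49% of all genes), and 4 rose and 0 fell in *KD2* (14.5% and 6.71% of all genes). Between the edited lines, *KD2* had the higher level for 5 members and the lower level for 4 (34.8% and 33% of all genes), and over 2-fold for 3 and 2 (14.7% and 8.58% of all genes). The median log2 fold change of the members was 0.32 in *KD1* and 0.34 in *KD2*, beside -0.03 and 0.01 for all genes tested. The members were chosen with earlier results of these data known, so these counts and medians are a description. *Il6*, *Il11*, *Socs3* and *Cebpd* were higher in both lines, *Il6ra* was lower in both, *Lif*, *Il6st*, *Lifr* and *Cebpb* passed the test in *KD1* and not in *KD2*, and *Osmr* changed in opposite directions. Both comparisons use the same *WT* cultures, and the comparison of the edited lines with each other is the test of a difference between them.

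Levels per length (CPM per kilobase of exon) allow the members to be ordered within a line. In *WT*, *Cebpb* was the highest at 45.9 ± 1.77 (SD, n = 3), followed by *Socs3* at 21.8 ± 2.98. *Lif* at 14.8 ± 0.855 and *Il6st* at 14.3 ± 1.02 overlapped, as did *Lifr* at 2.18 ± 0.204 and *Il6ra* at 2.09 ± 0.118, with *Osmr* (5.57 ± 0.257) and *Cebpd* (2.60 ± 0.105) between these pairs. *Il6* at 0.834 ± 0.0483 and *Il11* at 0.583 ± 0.0950 were the lowest members in the parental cells.

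In *KD1* the order changed at both ends. *Lif* was the highest at 153.5 ± 2.72, ahead of *Socs3* at 61.9 ± 2.22, *Cebpb* at 30.0 ± 3.78 and *Il6* at 21.0 ± 0.976, and *Lifr* was the lowest at 0.256 ± 0.0372. *Il6st* (16.9 ± 0.124), *Cebpd* (3.43 ± 0.157), *Osmr* (2.39 ± 0.0932), *Il6ra* (1.58 ± 0.0714) and *Il11* (1.28 ± 0.216) lay between, and of all neighbours in the order only *Il6ra* and *Il11* overlapped. In *KD2*, *Cebpb* (48.0 ± 11.7) and *Socs3* (46.4 ± 3.05) were the highest and overlapped. *Lif* (13.4 ± 1.55) and *Il6st* (13.1 ± 0.976) also overlapped, as did *Il6* (6.15 ± 1.36) and *Cebpd* (6.08 ± 0.541), whereas *Osmr* (8.51 ± 0.794), *Il11* (7.32 ± 0.194), *Lifr* (2.20 ± 0.183) and *Il6ra* (1.60 ± 0.124) did not overlap a neighbour. With the length of the longest transcript in place of all exons, 2 members took another rank in *WT*, 2 in *KD1* and 4 in *KD2*. These were *Lif* and *Il6st* in *WT*, and *Cebpd* and *Osmr* in *KD1*. In *KD2*, *Socs3* moved above *Cebpb*, *Osmr* moved from rank 5 to rank 3 and *Lif* from rank 3 to rank 5. The place of *Osmr* thus depends on the length used (12113 exon bases, 5491 in its longest transcript).

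**Figure D3:**
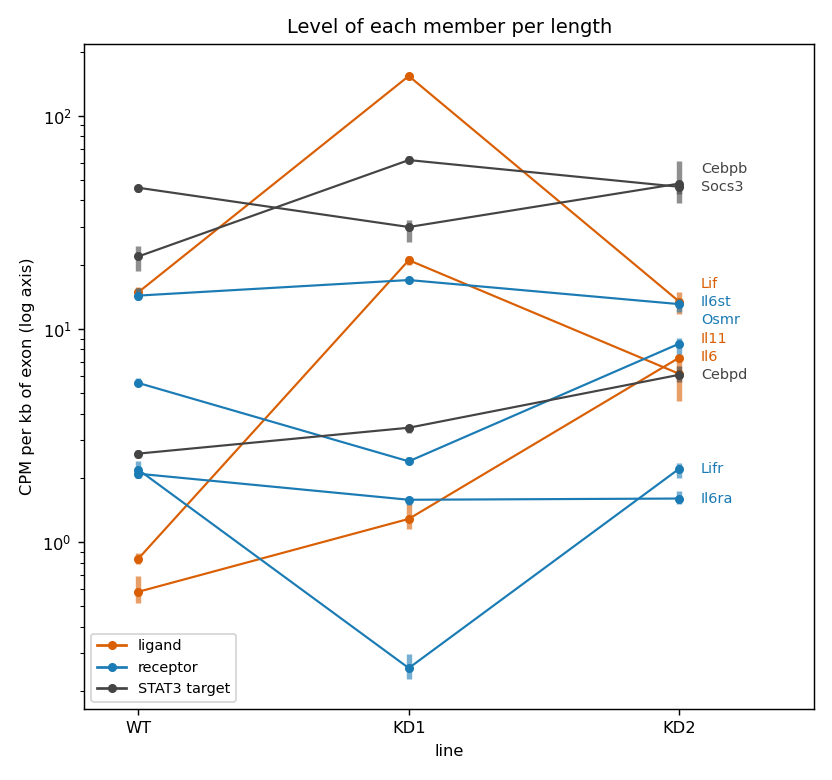
Level of each member per length in the 3 lines, in CPM per kilobase of exon on a log axis, with points for the mean, thick bars for the range of 3 cultures and colours for the role. *Lif* moves to the top and *Lifr* to the bottom in *KD1*. *Il6* moves up in both edited lines, and *Il11* moves up most in *KD2*.

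The place of the members in the genome was compared with their change. *Il6st* is on chromosome 13, where the 590 other genes tested had a median of -0.66 (log2) in *KD2*, and the 18 within 2 Mb of it had a median of -0.64. *Il6st* itself was at -0.13 there, which is 0.53 above the chromosome. For the 9 other members the chromosome median stayed between -0.20 and 0.15 against *WT*, and the median within 2 Mb between -0.37 and 0.21. The lowest of these window medians was that of *Cebpb* in *KD1* (-0.37, from 34 genes), beside a change of -0.61 for *Cebpb* itself. The windows of *Lifr* and *Osmr*, which overlap, had a median of -0.33 in *KD1*, beside changes of -3.09 and -1.22.

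The genes whose pattern over the 9 cultures was most like that of a member, by Pearson correlation of log2 CPM among 12395 genes, had r from 0.9691 to 0.9991. The 2 most like *Il6* were *Dcbld2* and *Ifit1*, and *Ifit1*, an interferon-induced gene, had a mean of 0.569 CPM in *WT*, 34.6 in *KD1* and 6.83 in *KD2*. *Parp8* and *Hmga2* were most like *Lif*, and *Hmga2*, a chromatin protein of fetal growth, went from 34.4 CPM in *WT* to 92.7 in *KD1* and 33.5 in *KD2*. *Oaz2* and *Tnfrsf1b* were most like *Il11*, and *Tnfrsf1b*, a TNF receptor, had means of 6.80, 10.8 and 30.5 CPM in the same order. *Aspa* and *Pmepa1* were most like *Lifr*, and *Aspa* went from 14.1 CPM in *WT* to 0.451 in *KD1* and 16.9 in *KD2*. *Traf1*, an adaptor of TNF receptors (4.24, 7.19 and 21.6 CPM), and *Hexim1* were most like *Cebpd*. The other pairs were *Efna1* and *Dnmt1* for *Il6ra*, *Tmem245* and *Gm42603* for *Il6st*, *Gclc* and *Pde7a* for *Osmr*, *Surf4* and *Vcp* for *Socs3*, and *Zfp523* and *Exosc2* for *Cebpb*. These correlations are a description over 9 libraries in 3 lines, so that any gene with a like order of the lines scores high.

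A further 82 genes of the pathway were examined by list, of which 65 passed the filter. These lists too were chosen with earlier results of these data known. In *KD1*, 33 rose and 13 fell, where 26.9% and 30% of all genes tested did so, and in *KD2*, 28 rose and 18 fell, where 34% and 33.3% of all genes did so. The counts of the lists below are small and stand beside these same shares, and nothing is read from a list whose share is near them. The median log2 fold change over the 65 was 0.25 and 0.13, respectively. With scaling to library size alone, the split in *KD2* was 32 higher and 11 lower. All genes tested then moved as well, to 6122 higher and 4111 lower, against 5181 and 5073 with TMM scaling. Between the edited lines, with TMM scaling, *KD2* had the higher level for 25 and the lower level for 26, where 34.8% and 33% of all genes tested did so.

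Of 9 other family ligands, 5 passed the filter. *Clcf1*, which encodes cardiotrophin-like cytokine, had 68.7 ± 2.68 CPM in *WT*, 165.7 ± 11.5 in *KD1* and 82.0 ± 10.3 in *KD2* (SD, n = 3). *Clcf1* rose 2.41-fold in *KD1* (adjusted p = 1.7e-08) and 1.19-fold in *KD2* (adjusted p = 0.017), and was 2.02-fold lower in *KD2* than in *KD1* (adjusted p = 1.1e-07). *Ctf1*, cardiotrophin 1, was 1.37-fold lower in *KD1* (adjusted p = 0.0043) and at 0.01 on the log2 scale in *KD2*. *Cntf* and *Ctf2* did not pass the test in either line, at -0.25 and 0.03 on the log2 scale in *KD1*, and 78.9% of the exons of *Cntf* are shared with *Zfp91*. *Osm*, next to *Lif* in the genome, had at most 1 count in a culture.

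Of 5 other receptors, 2 passed the filter. *Il11ra1*, the alpha receptor of interleukin 11, had 39, 49 and 54 counts in *WT*, 69, 70 and 58 in *KD1* and 168, 210 and 159 in *KD2*. The gene was 3.27-fold higher in *KD2* (adjusted p = 1.8e-07), the line with the highest *Il11*, and was at 0.22 on the log2 scale in *KD1* (adjusted p = 0.27). The difference between the edited lines was 2.82-fold (adjusted p = 3.3e-07). *Il31ra*, which lies 10 kb from *Il6st* and encodes a receptor of interleukin 31, had 2, 2 and 2 counts in *WT*, 31, 33 and 31 in *KD1* and 0, 1 and 0 in *KD2*. It rose in *KD1* (log2 fold change 3.66 ± 0.364, adjusted p = 1.1e-06). In *KD2* the ratio of *WT* to *KD2* was 6.93 with a 95% interval for counting error of 0.841 to 319, and its call (adjusted p = 0.045) did not hold with DESeq2 (adjusted p = 0.099).

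All 12 kinases, STATs and adaptors passed the filter, and 8 rose and 1 fell in *KD1*, beside 8 that rose and 2 that fell in *KD2*. *Stat3* itself had 158.3 ± 9.89 CPM in *WT*, 301.1 ± 1.88 in *KD1* and 286.9 ± 14.6 in *KD2*. The rise on the log2 scale was 0.93 ± 0.061 in *KD1* (adjusted p = 1.4e-08) and 0.86 ± 0.061 in *KD2* (adjusted p = 3.0e-08), and the edited lines did not differ detectably (log2 difference -0.07, adjusted p = 0.32). *Jak2*, a kinase bound to gp130, rose 1.92-fold and 1.37-fold, and *Adam10*, a protease that can shed the interleukin 6 receptor, 1.89-fold and 1.28-fold.

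Of 9 inhibitors other than *Socs3*, 8 passed the filter, and 4 rose and 0 fell in *KD1*, beside 5 that rose and 1 that fell in *KD2*. The SOCS family genes *Cish* and *Socs1* rose 2.32-fold and 2.17-fold in *KD1* and 1.73-fold and 1.61-fold in *KD2*. *Ptpn6*, a phosphatase that damps cytokine receptors, rose 1.71-fold in *KD1* and 2.49-fold in *KD2* (adjusted p = 8.0e-05 and 2.8e-07). *Pias3*, whose product binds STAT3 and blocks it, rose 1.40-fold and 1.65-fold.

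Among STAT3 targets of growth and survival, all 15 passed the filter, and 8 rose and 3 fell in *KD1*, beside 3 that rose and 6 that fell in *KD2*. The share that fell in *KD2* was near the 33.3% of all genes. *Ccnd1*, which encodes cyclin D1, had 715.7 ± 16.5 CPM in *WT*, 1545 ± 42.8 in *KD1* and 630.6 ± 17.2 in *KD2*, a rise of 2.16-fold in *KD1* (adjusted p = 2.2e-10) and a fall of 1.13-fold in *KD2* (adjusted p = 0.0047) that did not hold with scaling to library size alone (adjusted p = 0.20). The kinase gene *Pim1* rose 2.14-fold in *KD1* (adjusted p = 7.3e-08) and was at -0.02 on the log2 scale in *KD2*. *Pim3* rose 1.46-fold in *KD1* and fell 1.82-fold in *KD2*. *Myc* fell in both lines, by 1.78-fold in *KD1* (adjusted p = 3.4e-08) and 2.69-fold in *KD2* (adjusted p = 2.0e-10).

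Of 20 STAT3 targets of the acute phase and inflammation, 12 passed the filter, and 7 rose and 2 fell in *KD1*, beside 7 that rose and 1 that fell in *KD2*. The list had a median log2 fold change of 1.00 in *KD1* and 1.41 in *KD2*, the highest of the 8 lists of other pathway genes apart from the receptor list, with its 2 genes tested, in *KD1*. Some of the 12 passed the filter through the line where they were high. *S100a9* had 0, 1 and 1 counts in *WT* and 37, 21 and 21 in *KD1*. In *WT* and *KD2*, *Icam1* had 1, 2 and 1 against 33, 31 and 30, and *Orm1* had 1, 2 and 0 against 15, 21 and 11. The filter can thus raise the counts and medians of this list, and nothing is read from its rank. *Lcn2*, an iron-binding protein of inflammation and involution, had 79, 83 and 95 counts in *WT*, 673, 582 and 600 in *KD1* and 1585, 1544 and 1488 in *KD2*. It rose 6.04-fold in *KD1* (adjusted p = 3.4e-09) and 15.8-fold in *KD2* (adjusted p = 5.0e-11). *Steap4*, a metalloreductase induced by inflammation, rose 4.08-fold and 8.02-fold. *Il1rn*, the interleukin 1 receptor antagonist, rose 3.32-fold in *KD1* (adjusted p = 2.3e-09) and was at -0.18 on the log2 scale in *KD2* (adjusted p = 0.16). *Lbp*, the lipopolysaccharide binding protein, had 22, 26 and 33 counts in *WT*, 1, 1 and 2 in *KD1* and 148, 190 and 135 in *KD2*, and so moved in opposite directions (adjusted p = 3.4e-07 and 4.6e-08).

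All 7 involution genes passed the filter, and 4 rose and 2 fell in *KD1*, beside 3 that rose and 4 that fell in *KD2*. The shares that fell in *KD1* and rose in *KD2* were near the 30% and 34% of all genes. *Igfbp5*, a secreted inhibitor of IGF survival signals, had 1979 ± 159.3 CPM in *WT* and 556.9 ± 4.97 in *KD1*, a fall of 3.55-fold (adjusted p = 1.0e-11). In *KD2* its fall of 1.12-fold (adjusted p = 0.025) did not hold without *WT* replicate 2 (adjusted p = 0.23). *Tgm2*, a transglutaminase, rose 1.49-fold in *KD1* and 6.21-fold in *KD2* (adjusted p = 9.6e-05 and 3.1e-11). *Il1r1*, the interleukin 1 receptor, rose 1.36-fold and 1.88-fold, and the protease gene *Ctsl* rose 1.92-fold in *KD1* (adjusted p = 4.4e-09). *Ctsl* was 1.13-fold lower in *KD2* (adjusted p = 0.013), which did not hold with scaling to library size alone (adjusted p = 0.33).

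Of 5 further C/EBP family genes, 4 passed the filter, and 3 were lower and 0 higher in each edited line. *Ddit3*, the stress-induced CHOP, fell 2.54-fold in *KD1* and 1.85-fold in *KD2*, *Cebpa* 1.67-fold and 1.75-fold, and *Cebpg* 1.51-fold and 1.75-fold. *Cebpd* was the 1 gene of this family that rose in both lines.

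**Figure D4:**
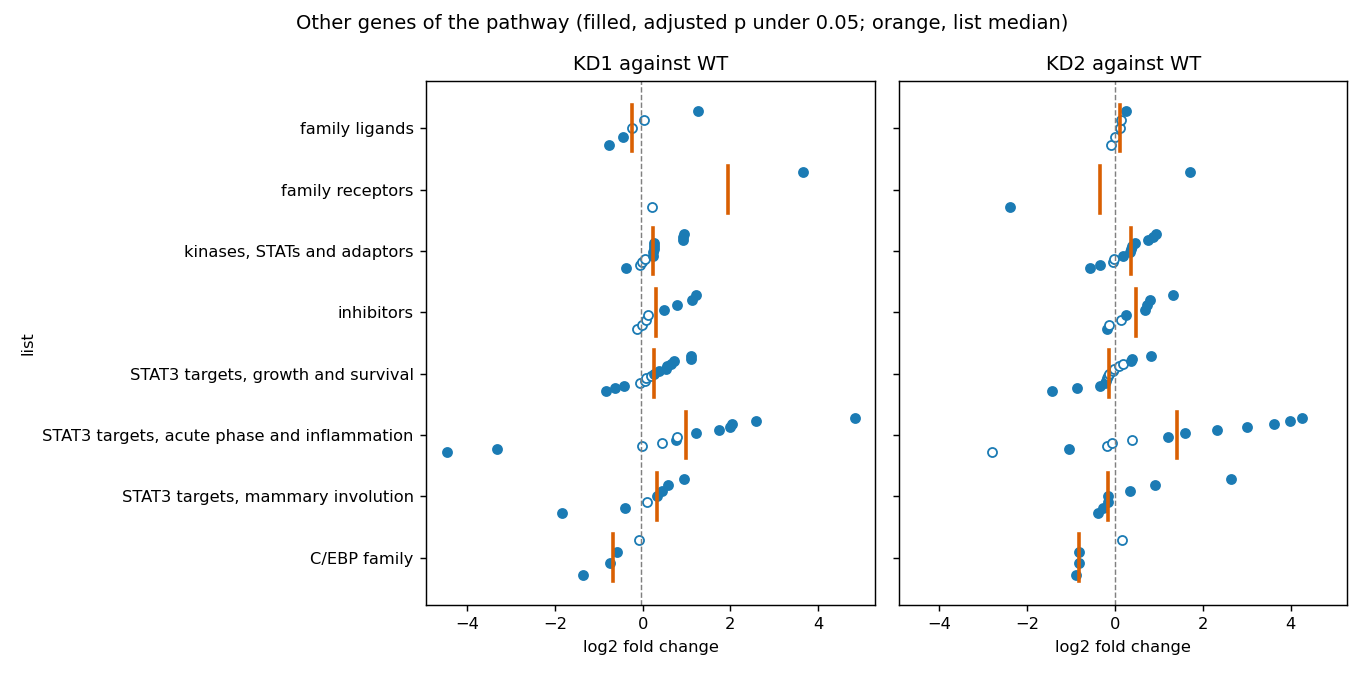
Log2 fold change of the 65 other pathway genes that passed the filter, by list, with filled points for adjusted p under 0.05, an orange bar for the median of the list and a dashed line for the median of all genes tested. The acute phase and inflammation list reaches farthest to the right and farthest to the left in both lines, and the C/EBP family list has no gene that rose. The point farthest right in *KD1* (4.83) and farthest left in *KD2* (-2.8) is *S100a9*, with 0, 1 and 1 counts in *WT*.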

How the data were processed

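Reads had been trimmed, and those with a mean quality below 20 removed, by fastp, then aligned to GRCm38 by HISAT2 and summed per gene by featureCounts. The authors deposited these whole-number counts without normalization. All 9 columns carry the title of a culture, and 0 columns were left without a culture.

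The quasi-likelihood test of edgeR 4.0.16 (R 4.3.3) was fitted once over all 9 cultures, after TMM scaling and the expression filter of edgeR on the 3 lines. P-values were adjusted over all genes tested by the Benjamini-Hochberg method. A gene changed at an adjusted p under 0.05, and "rose" or "fell" means that it did. The SE comes from the F statistic, and 95% intervals of log2 fold changes use it with a normal quantile. These intervals are therefore somewhat narrower than the F test would give. CPM values use TMM-scaled library sizes. The test was checked on simulated counts with 200 genes changed in *KD1* alone. In these data 4103 genes rose and 4583 fell in *KD1*, so that check did not cover so wide a change. Positions, exon lengths and overlaps come from GENCODE (GRCm38, not the release of the study), and promoter windows from RefSeq (GRCm38.p6).

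The members and lists were chosen with earlier results of these data known. Beside the members, *Vangl2* and *Stat3*, the text names up to 4 genes per list with the largest log2 fold change among those changed in *KD1* or *KD2* with no overlap with *WT* and a mean log2 CPM above 0, all other family ligands and receptors that passed the filter, and the 2 genes most like each member. *Osm* and the genes named for overlapping exons fall outside that rule. Some genes that the rule picks are not reported here. No set test was run. Alternatives were DESeq2 1.42.0, other scalings (size factors by median of ratios, library size alone) and filters (1 count in any culture, 10 counts in every culture), fits of only the 6 cultures compared, the replicate number as a block, each culture left out, a 2-fold limit, and the longest transcript as length.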

Additional observations from a re-analysis of the deposited data

Results flagged for a closer look

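For 9 of the 10 members the level differed between the edited lines by the direct test of *KD2* against *KD1* in edgeR, which is what brought them here. The log2 difference was -1.76 for *Il6*, -3.51 for *Lif*, 2.51 for *Il11*, -0.37 for *Il6st*, 3.10 for *Lifr*, 1.84 for *Osmr*, -0.42 for *Socs3*, 0.67 for *Cebpb* and 0.82 for *Cebpd*, with a positive value where *KD2* was higher. In all 9, no culture of one edited line overlapped the other. That adds no support, since these genes were picked by the test of *KD2* against *KD1*. The share of all genes without overlap was not counted. Of all genes tested, 34.8% were higher and 33% lower in that comparison, so a difference between the edited lines is common in these data. No test for a single outlying value was made, since each line has 3 cultures.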

How the results depend on the processing

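All 25 member changes that passed the test kept direction and call in each of the 16 alternatives. With a 2-fold limit as well, 2 members fell in *KD1* and 0 in *KD2*, and between the edited lines *KD2* was higher for 3 and lower for 2. Leaving out a culture at a time gave 1 to 2 members lower in *KD2*, and the additional member, without *KD2* replicate 2, was *Lif*. With scaling to library size alone, the median of all genes in *KD2* against *WT* moved by 0.11 on the log2 scale, and 11 other pathway genes were lower in *KD2*. All genes tested then split into 6122 higher and 4111 lower in *KD2* against *WT*, against 5181 and 5073 with TMM scaling. Between the edited lines they split into 6438 higher and 3984 lower, against 5303 and 5037. The cause of these shifts was not tested.

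The values that changed sign belong to genes that did not pass the test there. Leaving out a culture at a time gave log2 values of -0.04 to 0.05 for *Il6ra* and -0.21 to 0.56 for *Ctf2* between the edited lines, and, in *KD2*, -0.05 to 0.12 for *Lifr*, -0.12 to 0.19 for *Cebpb*, -0.04 to 0.13 for *Vangl2*, -0.07 to 0.15 for *Ctf1*, -0.25 to 0.44 for *Ctf2* and -0.05 to 0.02 for *Pim1*. For *Ctf2* in *KD1* they ran from -0.45 to 0.36. DESeq2 gave -0.0037 for *Il6ra*, and no filter gave -0.03 for it, -0.02 for *Lifr* and -0.02 for *Ctf1*. Library size alone gave 0.06 for *Stat3* and 0.06 for *Cebpa* between the edited lines, and 0.09 for *Pim1* in *KD2*, where at least 10 counts in every culture gave 0.05 for *Pim1*.

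The replicate numbers did not pair the cultures (correlations of same-numbered deviations from -0.0652 to 0.0789). With the replicate block the members gave the same counts, 6 and 4 in *KD1* and 5 and 1 in *KD2*, and 29 other pathway genes were higher in *KD2* against 28 without it. Of the named genes, the block ended the call of *Il31ra* in *KD2*. Calls near the threshold in *KD2* were also lost without single cultures: *Igfbp5* without *WT* replicate 2 or 3 or *KD2* replicate 3 (adjusted p 0.068 to 0.23), *Ctsl* without *WT* replicate 2 or 3 or *KD2* replicate 1 or 2 (0.06 to 0.07), and *Il31ra* without any *WT* culture or *KD2* replicate 1 or 3 (0.062 to 0.13). The changes of *Igfbp5* and *Ctsl* were small, and that of *Il31ra* rests on 6 counts in *WT* and 1 in *KD2*.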
